A study of Mus musculus with 32 samples.

Results

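CpG methylation was compared between the left retinas of 6 mice and the right retinas of 10 other mice. Together they are the 16 RRBS libraries among the 32 deposited libraries. The paper describes more RRBS libraries than these, both made and analysed. RRBS, reduced representation bisulfite sequencing, cuts DNA with the enzyme MspI and reads the methylated share of each CpG in the CpG-rich fragments. Eye side was taken from the labels. The 3 left retinas from spaceflight were those of mice M21, M22 and M29 and the 5 right ones those of M23 to M27. The 3 left retinas from ground control were those of M31, M32 and M39 and the 5 right ones those of M33 to M37. All were female C57 BL/6J mice, 21 weeks old by their labels and with no transgene or drug named. The spaceflight mice lived in orbit for 37 days and the ground control mice in the same type of animal enclosure on Earth. The eyes were taken from thawed carcasses and the retina was micro-dissected, so a library holds the DNA of every cell type of the dissected tissue. The labels of the methylation library of M21 all gave spaceflight, while those of its RNA library, not used here, gave flight in one field and ground control in another. Without M21 the mean difference described below was -0.237 points (exact permutation p = 0.0561) and 0 CpGs were called. No mouse gave both a left and a right library. The comparison is therefore one between mice, and in either habitat the right retinas carry consecutive mouse numbers, so that eye side and anything that follows the numbering cannot be told apart. The study compared spaceflight with ground control mice. Eye side was a label of its samples, and spaceflight or ground control was kept here as a stratum.

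The left and right retina are mirror images that form from separate optic vesicles. Internal organs take their side from the Nodal and Lefty pathway, while the axes drawn inside each eye, dorsal to ventral and nasal to temporal, are set by transcription factors such as Tbx5, Vax2 and Foxd1 and read out by Eph receptors and ephrins. Methylation at CpGs is mostly low in CpG islands and at the starts of genes and high elsewhere, and it differs between cell types. Rods are the most numerous cells of the mouse retina, and the promoters of several rod genes are less methylated in rods than in other cells.

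The libraries held 59572205 to 105298542 calls on CpG cytosines, and 1045775 autosomal CpGs, of 3252026 CpGs on autosomes and chromosome X that were read at all, had at least 10 reads in every library. A shared CpG had a median of 54.7 ± 8.57 reads (SD, n = 6) in left libraries and of 49.4 ± 6.29 reads (SD, n = 10) in right ones, a gap with an exact permutation p of 0.202. Some libraries stood apart from the rest. In M31, a left retina from ground control, the spread of single CpGs around the other libraries was 3.399 times that of binomial sampling, against 1.41 to 1.92 times in the other 15. M31 alone carried the first principal component with a score of 0.898, M23, a right retina from spaceflight, the second with 0.937, and M21, a left retina from spaceflight, the third with 0.915. M31 and M23 were at least 10 points (percentage points) from the mean of the other libraries at 199 and 196 of 16170 promoters with at least 5 CpGs, against 9 to 40 in each other library.

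Mean methylation over the shared CpGs was slightly lower in left retinas, by less than the replicates allow to separate. The left retinas measured 36.5%, 35.98% and 36.5% in M21, M22 and M29 from spaceflight and 35.9%, 36.5% and 36.5% in M31, M32 and M39 from ground control. The right retinas ranged over 36.2% to 36.7% in spaceflight and 36.4% to 36.6% in ground control. Only M22 and M31 lay below every right retina. The means were 36.3% ± 0.289 (SD, n = 6) in left and 36.5% ± 0.150 (SD, n = 10) in right retinas. Left minus right, averaged over the habitats, was -0.193 points (95% interval -0.442 to 0.0396, exact permutation of eye labels within habitat, two-sided p = 0.103). It was -0.142 points in spaceflight (exact permutation p = 0.464) and -0.244 points in ground control (exact permutation p = 0.0893), where the smallest p that 3 against 5 allows is 0.0179. Without M31 the difference was -0.0928 points (exact permutation p = 0.327), and without M22 it was -0.107 points (exact permutation p = 0.363). Without M23, the lowest of the right retinas, it was -0.230 points with an exact permutation p of 0.0372.

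**Figure D1:**
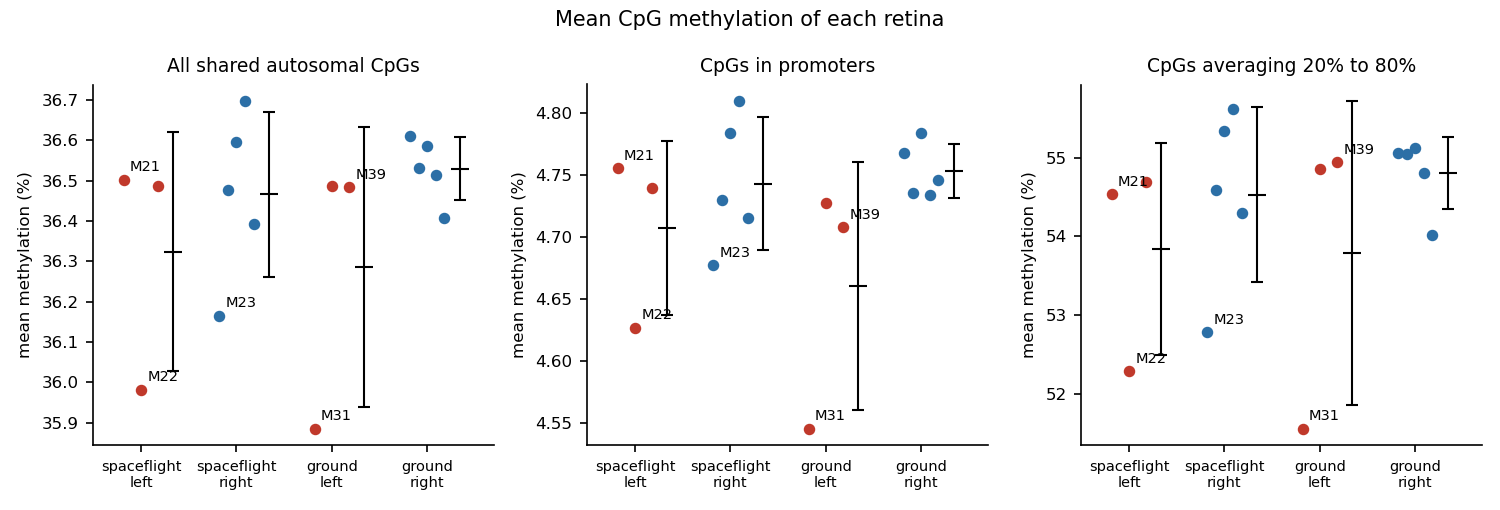
Mean methylation (%) of each retina over all shared autosomal CpGs, over CpGs in promoters and over CpGs that average 20% to 80%; each point is 1 retina (left red, right blue), and the black mark and bar are the mean and SD of a group. The left points overlap the right ones except for M22 and M31, which lie lowest in each panel; the axes do not start at 0.

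The same small deficit in left retinas was measured in all 9 classes of region and in none was it past the adjusted threshold. Promoter CpGs, within 1000 bp of a gene start, averaged 4.68% ± 0.0814 (SD, n = 6) in left and 4.75% ± 0.0388 (SD, n = 10) in right retinas. This difference of -0.0642 points had the lowest p of the classes (exact permutation p = 0.0485, Benjamini-Hochberg adjusted p = 0.140 over the 9 classes), and without M31 it was -0.0355 points (exact permutation p = 0.139). CpG islands differed by -0.0450 points and their shores by -0.422 points, on means of 60.2% ± 0.572 (SD, n = 6) in left and 60.6% ± 0.321 (SD, n = 10) in right retinas. CpGs that average 20% to 80% were 53.8% ± 1.49 (SD, n = 6) methylated in left and 54.7% ± 0.817 (SD, n = 10) in right retinas, a difference of -0.855 points whose 95% interval ran from -2.16 to 0.378. Those above 80% differed by -0.297 points (exact permutation p = 0.0520, Benjamini-Hochberg adjusted p = 0.156 over the levels). Without M31 this difference was -0.183 points (exact permutation p = 0.144). Those under 20% differed by -0.00548 points. Mean methylation was lower in left retinas on each of the 19 autosomes, with exact permutation p-values that adjusted to no less than 0.166. Classes and autosomes are averages over the same 16 libraries, so their shared direction is not repeated evidence.

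No single CpG separated left from right retinas after adjustment. Of 1045775 CpGs, 0 (a percentage of 0) had a Benjamini-Hochberg adjusted p of 0.05 with a difference of 10 points by logistic regression, and the lowest adjusted p was 0.863. At an unadjusted p of 0.05 there were 45894 CpGs, 4.39% of those tested. With a difference of 10 points as well there were 3151 (0.301%), of which 2288 (0.219% of all CpGs) were lower and 863 higher in left retinas. limma on the library percentages gave 3843 CpGs at those unadjusted limits and 0 calls. It gave 7 CpGs with an adjusted p of 0.05, each under 10 points. For comparison, the habitat term of the same fit gave 1958 CpGs at the unadjusted limits, 881 higher and 1077 lower in spaceflight, and 0 calls. The typical eye difference of a CpG was small, with a median size of 0.620 points, and 99% of CpGs differed by less than 8.55 points. Differences of 20 points or more were measured at 39 CpGs, 33 of them lower in left retinas. The values of all left retinas lay to one side of all right ones at 154 CpGs, 0.0147% of those tested, of which 39 differed by 10 points or more.

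The excess of CpGs that were lower in left retinas rested in part on single libraries. Of the CpGs at the unadjusted limits, 72.6% were lower in left retinas with all libraries, 60.7% without M31 (1675 of 2758) and 64.6% without M22 (2076 of 3215). Without M32, a left retina from ground control with the most reads, the count was 5229, of which 3972 were lower, which is over 1.5 times the count with it. The CpGs at these limits were mostly of intermediate methylation: 2433 averaged 20% to 80%, 588 were above and 130 below that range. They made up 0.611% of intronic CpGs, 0.460% of intergenic, 0.447% of exonic and 0.0844% of promoter CpGs.

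**Figure D2:**
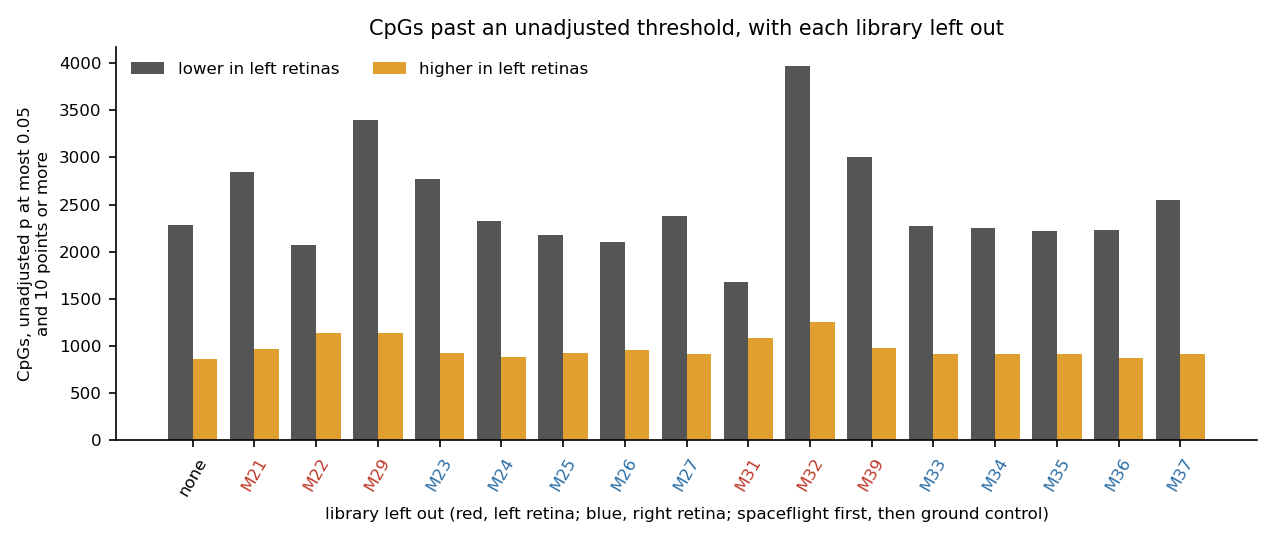
Number of CpGs with an unadjusted p of at most 0.05 and a difference of at least 10 points, lower (grey) or higher (orange) in left retinas, with all 16 libraries (none) and with each library left out in turn. The grey bars range from 1675 without M31 to 3972 without M32, and each is taller than its orange bar.

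The 10 CpGs with the smallest p among those of 10 points or more and of 1 sign in both habitats are described next. None had an adjusted p below 0.863. By the gene annotation, 3 lie within 1000 bp of a gene start (1 of them, in Mrps7, in an exon), 4 in introns and 3 between genes. Of the 5 whose left and right values do not overlap, 4 are printed from the GRCm38 reference, plus strand, with the measured CpG in capitals.

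Mrps7, chr11:115604859-115604888: caaagctgcggccgCGactgaaaccagctc

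Myo18a, chr11:77784397-77784426: tatcctgagacgggCGtgactgtgactctc

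Rtkn2, chr10:68039663-68039692: gtggatgtctctatCGacagtggcgaaaag

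Gm30510, chr17:87106611-87106640: ttttgtctgagcacCGgaaagtagtatgtc

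The CpG with the smallest p is in an exon of Mrps7, which encodes a protein of the small subunit of the mitochondrial ribosome, 733 bp past the gene start at position 115604873 of chromosome 11. It was methylated at 20%, 8.62% and 20.8% in the left retinas from spaceflight and 7.14%, 17.4% and 16.3% in those from ground control. The right retinas ranged over 26.7% to 44.1% with a median of 29.8%. All 6 left values lay below all 10 right ones, on 33 to 59 reads per library. The means were 15.03% ± 5.79 (SD, n = 6) in left and 31.8% ± 5.66 (SD, n = 10) in right retinas, with differences of -12.6 points in spaceflight and -21.0 points in ground control. Without M31 the difference was -15.2 points, against -16.8 points with it (unadjusted p = 1.08e-04 with all libraries).

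In an intron of Myo18a, which encodes an unconventional myosin, the left retinas ranged over 63.4% to 88.9% and the right ones over 89.7% to 96.7%. The lowest left value was that of M31, and the difference was -13.7 points with M31 and -11.0 points without it. Each library had 19 to 94 reads there. A CpG in an intron of Rtkn2, whose product binds small GTPases, went the other way. It measured 13.04% to 30% in left and 0% to 10% in right retinas, a difference of 13.5 points. This CpG had only 10 to 67 reads per library. The highest right value, in M23, rested on 10 reads and the lowest left value, in M29, on 23. The CpG in the promoter of the predicted gene Gm30510 lay between 8.70% and 27.8% in left and between 28.6% and 40.4% in right retinas, and M31 and M39 were the lowest. The CpG on chromosome 18, at position 47450663 with 9130209A04Rik as the nearest gene, was 46.2% to 66.1% methylated in left and 27.9% to 43.9% in right retinas. It had the only other full separation, on 12 to 77 reads per library. It was higher in left retinas by 17.2 points in spaceflight and 19.6 points in ground control.

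The other 5 CpGs overlapped between the eyes. The CpG with the widest gap of the 10, at position 111724966 of chromosome 3 and far from any annotated gene start, measured 26.8% ± 9.14 (SD, n = 6) in left and 49.97% ± 6.81 (SD, n = 10) in right retinas. Of its left values, 5 lay below the right range of 41.5% to 61.5%, and that of M39 was 42.3%. Each library had 12 to 55 reads there. A CpG in an intron of Rbfox3, the gene of the neuronal marker NeuN, averaged 72.2% ± 10.4 in left and 90.2% ± 5.88 in right retinas. A CpG near the start of Kbtbd4, an adaptor of a ubiquitin ligase, averaged 59.7% ± 5.88 in left and 75.8% ± 6.72 in right retinas. One in an intron of Pknox1, a homeodomain transcription factor, averaged 73.2% ± 2.92 in left and 84.4% ± 4.57 in right retinas, with nearly the same difference in spaceflight (-11.4 points) and ground control (-11.2 points). The last, between genes at position 106468199 of chromosome 5, averaged 17.5% ± 6.92 in left and 6.31% ± 2.41 in right retinas, and 5 of its left values lay above all right ones.

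**Figure D3:**
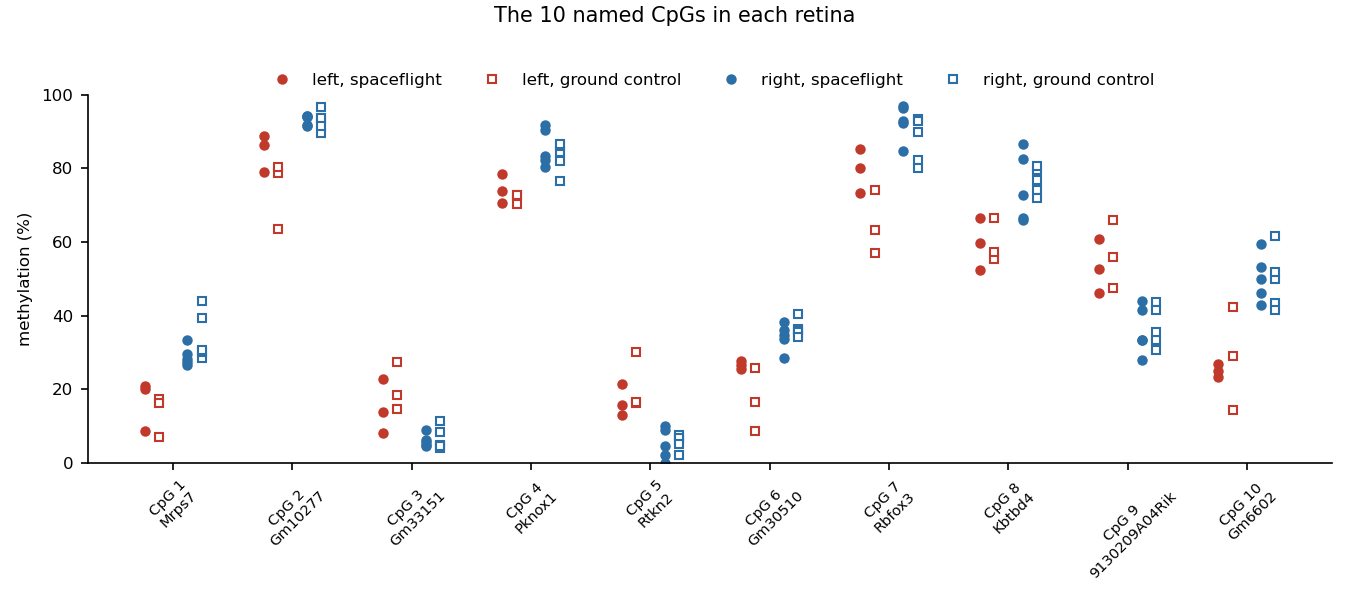
Methylation (%) of the 10 CpGs with the smallest p in each retina, named by the nearest gene start (Gm10277 for the CpG in Myo18a), left (red) beside right (blue), filled circles for spaceflight and open squares for ground control. The left and right values do not overlap for 5 of the 10, and each CpG was chosen for its difference.

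Neighbouring CpGs that passed an unadjusted p of 0.05 in 1 direction within 200 bp of each other formed 1212 runs of at least 3 CpGs, 518 lower and 694 higher in left retinas. The direction of a run is part of how it was formed. The values given for a run are means over its passing CpGs, and the CpGs between them that did not pass were left out. The passing CpGs were chosen for their eye difference, so a gap or full separation of the eyes in a run follows largely from that choice. The longest run held 16 of the 21 CpGs measured between chr8:3994359-3994510. It overlaps an exon of Gm7389, an annotated pseudogene, and its sequence, with the 16 CpGs in capitals, shows how dense they are.

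Gm7389 run: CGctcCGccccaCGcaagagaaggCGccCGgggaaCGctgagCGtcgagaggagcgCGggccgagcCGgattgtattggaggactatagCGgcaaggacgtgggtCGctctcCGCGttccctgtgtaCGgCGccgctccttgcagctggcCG

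The run averaged 36.6%, 36.4% and 26.5% in the left retinas from spaceflight and 27.1%, 29.9% and 29.97% in those from ground control, against a right range of 35.04% to 48.04% with a median of 41.7%. Left and right overlapped in spaceflight and not in ground control, where the difference was -15.1 points, against -5.15 points in spaceflight. This sequence and its 50-base pieces each matched the assembled chromosomes only once, but reads from a less exact copy elsewhere were not tested for. The second run lies 177 bp past the start of Ascl5, a bHLH transcription factor, where 10 of 30 CpGs passed. Those 10 CpGs averaged 16.7% ± 2.36 (SD, n = 6) in left and 25.9% ± 3.29 (SD, n = 10) in right retinas. Over these chosen CpGs, every left value of 13.9% to 20.4% lay below every right value of 21.6% to 31.7%.

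The other 4 long runs lie in or beside genes of unrelated function. In an intron of Socs5, a suppressor of cytokine signalling, 10 CpGs averaged 52.4% ± 6.14 in left and 37.8% ± 8.09 in right retinas, 14.6 points higher in left retinas. A run at Ccdc177 averaged 54.96% ± 7.96 in left and 68.2% ± 6.17 in right retinas. Runs in Grik5, a kainate receptor subunit, and Jph2, a junctophilin of the calcium-handling membrane, were at low levels, 4.62% ± 3.06 in left against 1.34% ± 0.467 in right retinas and 14.2% ± 3.66 in left against 7.67% ± 1.78 in right retinas. In the Grik5 run M31 was highest at 9.90%, and the difference was 2.29 points without it against 3.29 points with it.

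Summing reads over whole regions gave no call either. For 17865 gene promoters with at least 3 CpGs, 0 (a percentage of 0) passed an adjusted p of 0.05 with 5 points, and the lowest Benjamini-Hochberg adjusted p of the logistic regression was 0.820. At an unadjusted p of 0.05 there were 1059 promoters (5.93%), 739 lower and 320 higher in left retinas, and limma gave 1204 at that limit and 0 calls. Without M23 the count was 1573, of which 1252 were lower. Without M31 it was 806, of which 496 were lower. For 22071 CpG islands 0 (0 percent) were called, with a lowest adjusted p of 0.895 and 1171 (5.31%) at an unadjusted p of 0.05. For 202193 MspI fragments 0 (0 percent) were called, with a lowest adjusted p of 0.932 and 10265 (5.08%) at an unadjusted p of 0.05. limma gave 1270 islands and 11184 fragments at that limit and no call, with 1 fragment at an adjusted p of 0.05 that differed by under 10 points.

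Among promoters, that of Krtcap3, a membrane protein first found in keratinocytes, had the smallest p among those of 5 points or more and of 1 sign in both habitats. Its 6 CpGs measured 31.2%, 22.65% and 41.2% in the left retinas from spaceflight and 36%, 35.6% and 34.2% in those from ground control, against a right range of 38.4% to 46.9%. Of the left values, 5 lay below all right ones, and the exception was M29. The difference was -10.2 points (unadjusted p = 0.00116), -12.8 in spaceflight and -7.54 in ground control. The same 6 CpGs form the island of Krtcap3. The promoter of Gnmt, glycine N-methyltransferase, which uses up the methyl donor S-adenosylmethionine, measured 25.5% ± 1.56 (SD, n = 6) in left and 30.8% ± 3.38 (SD, n = 10) in right retinas. Left and right differed by -5.30 points there, and 5 of the left values lay below all right ones.

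The promoter of Chp2, which binds sodium-proton exchangers, was 6.57 points higher in left retinas, at 50.9% ± 3.82 against 44.3% ± 4.28. Its highest right value was that of M23, at 54.4%. The promoter of Tafa1, a secreted chemokine-like protein of neurons, measured 12.3%, 13.4%, 13.1% and 11.5% in M21, M22, M29 and M32, but 26.8% in M31 and 21.1% in M39, against 8.33% to 14.04% in right retinas. Its difference of 5.52 points was 3.77 without M31. The predicted genes Gm35460 and Gm35971 were 5.58 points higher and 6.82 points lower in left retinas.

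Of the islands, the one in the region of Rassf3, 40437 bp past a start of that gene, measured 51.8% ± 6.29 (SD, n = 6) in left and 59.7% ± 3.64 (SD, n = 10) in right retinas, with M21 at 63.8% and the other left values between 45.3% and 51.3%. An island at the start of Gm51674 measured 11.2% ± 2.59 in left and 19.4% ± 4.22 in right retinas. The islands nearest Gm40302, Plekhm2 and Gm25448 differed by -6.37, -6.38 and -6.96 points between left and right retinas, and the lowest left value of each was that of M31.

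Of the MspI fragments, 1 in an intron of B3glct, a glucosyltransferase of secreted proteins, had the smallest p and no overlap between the eyes. Its 68 bases, chr5:149692735-149692802 on the plus strand of GRCm38, hold 4 CpGs, shown in capitals.

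B3glct fragment: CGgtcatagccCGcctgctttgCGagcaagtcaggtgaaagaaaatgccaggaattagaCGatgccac

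It measured 58.6%, 47.0% and 48.9% in the left retinas from spaceflight and 55.9%, 58.1% and 56.3% in those from ground control, on at least 201 calls per library. The right retinas ranged over 59.1% to 69.4% with a median of 65.6%. The lowest right value was that of M27 and the highest left value that of M21. The difference was -11.4 points in spaceflight and -9.36 points in ground control (unadjusted p = 1.27e-04, Benjamini-Hochberg adjusted p = 0.932 by logistic regression). Among the named fragments, 1 nearest Gm42013 was the other one without overlap, at 75.1% ± 4.23 in left and 62.8% ± 4.86 in right retinas. Of all 202193 fragments, 70 (0.0346%) had no overlap between the eyes. The 4 others differed by -13.5 (nearest Ccnq), -11.4 (Gm13840), -10.9 (Polr3gl) and 13.2 points (Gm34675), and their values overlapped.

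The eye differences of the spaceflight mice correlated weakly with those of the ground control mice, which are separate animals on both sides. Across the 1045775 CpGs the differences in the 2 habitats correlated with a Pearson r of 0.0368, a description over CpGs that share libraries and are not independent. The same r was 0.146 over promoters, 0.0767 over islands and 0.0540 over fragments. Of the 3534 CpGs with an unadjusted p of 0.05 and 10 points in spaceflight alone, 55.8% had the same sign in ground control, with a median difference there of -0.837 points against -11.5 points where they were chosen. Of the 6217 chosen in ground control alone, 54.6% had the same sign in spaceflight. The share differed by direction. Of the CpGs lower in left retinas in spaceflight, 58.7% were lower in ground control, against 52.9% of all CpGs with any difference there. Of those higher in left retinas in spaceflight, 49.9% were higher in ground control, against 47.1% of all CpGs with any difference. In ground control 12.6% of all CpGs had no difference. All CpGs include 597275 that averaged under 20%, while the chosen ones needed 10 points, so these shares are over unlike CpGs. CpGs that average 20% to 80% differed by -1.02 points in ground control. Without M22 the shares chosen in spaceflight and in ground control were 47.9% and 48.2%, and without M31 they were 51.0% and 51.8%.

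**Figure D4:**
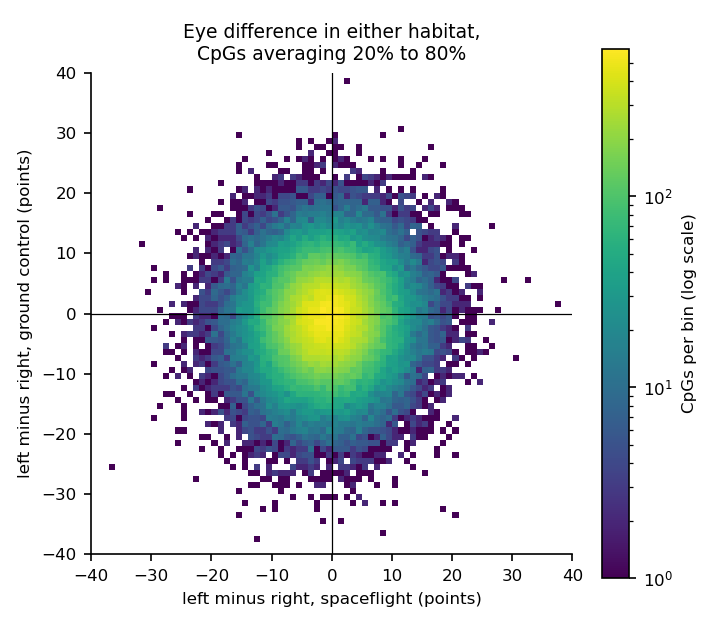
Left minus right (points) in spaceflight (x axis) and in ground control (y axis) for the 116834 CpGs that average 20% to 80%, as a count per bin on a log colour scale. The cloud is centred near 0 and shows little tilt.

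The eye-by-habitat term passed an adjusted p of 0.05 at 0 CpGs, with a lowest adjusted p of 0.99997. At an unadjusted p of 0.05 there were 35942 CpGs, 3.44% of those tested. The term passed at 0 promoters, islands and fragments by the same logistic regression, and 765 of 17865 promoters had an unadjusted p of 0.05. Pairs of libraries from opposite habitats share no reads, so that their departures from the other libraries of their own habitat can be compared. Over the 64 such pairs the most alike were M22 and M31, both left, with a Pearson r of 0.123 across the 116834 CpGs of intermediate methylation. The next were M23, right, and M31, with 0.0826. The 9 pairs of left with left averaged 0.00677, the 25 of right with right 0.00566 and the 30 of left with right -0.00631. Their medians were -0.00440, 0.0142 and -0.00398, so the left with left average rested on the pair of M22 and M31. Departures cancel within a habitat by the way they were formed. Averages of same-eye and opposite-eye pairs therefore tend to opposite signs, which is no test of the eye.

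The genes of the left-right axis, which place the internal organs, were measured at 19 of 26 promoters, and none was called. Of these, 1 was lower and 2 were higher in left retinas at an unadjusted p of 0.05, where 5.93% of all promoters passed. The median difference was -0.0249 points, against -0.0307 points over all promoters. Lefty1, which encodes an inhibitor of Nodal, was the largest, on 3 CpGs. It measured 48.4%, 40.1% and 42.8% in the left retinas from spaceflight and 42.1%, 41.3% and 44.4% in those from ground control, against 25.2% to 44.8% with a median of 36.2% in right retinas. The left values lay within or just above the right range, and the difference of 6.44 points had an unadjusted p of 0.0307 (adjusted p = 0.820). Nodal, the ligand, was 10.5% ± 1.12 (SD, n = 6) methylated in left and 10.6% ± 1.08 (SD, n = 10) in right retinas. Ccdc40, needed for motile cilia, differed by -0.589 points on a level of 3.82% ± 0.447 in left and 4.41% ± 0.458 in right retinas. The promoter of Lefty2 was not among those measured.

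The genes that lay out the axes of the eye mostly had low promoter methylation in both eyes, with a median level of 1.11% for the dorsoventral and 0.686% for the nasotemporal list. Of 18 measured genes of the dorsoventral axis 1 was lower at an unadjusted p of 0.05, Ephb2, an Eph receptor of ventral retina. It measured 1.16% to 1.70% in left and 1.49% to 2.06% in right retinas on 137 CpGs, and 4 of the 6 left values lay below all right ones. The difference was -0.324 points (unadjusted p = 0.00171), -0.306 in spaceflight and -0.342 in ground control, and the adjusted p was 0.820. Tbx5, a dorsal transcription factor, differed by -0.699 points and Vax2, a ventral one, by -0.266 points, with unadjusted p of 0.398 and 0.271. The difference of Tbx5 ran from -1.26 points, without M31, to -0.151 points, without M21, with a library left out. None of 18 genes of the nasotemporal axis passed an unadjusted p of 0.05. Foxd1, a temporal transcription factor, was at 0.684% ± 0.203 (SD, n = 6) in left and 0.629% ± 0.171 (SD, n = 10) in right retinas.

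Rod genes gave the highest signed median difference of the 14 lists, and M31 and M39 were the highest libraries. The median of lens and cornea genes, -1.28 points, was larger in size and negative. Promoters were measured for 10 of 23 rod genes. Beside the label retina, their mean was 12.6% ± 2.82 (SD, n = 6) in left and 10.5% ± 0.730 (SD, n = 10) in right retinas. Genes of other tissues lay below and above this level. In left retinas 3 genes of fibroblasts and sclera averaged 0.821% ± 0.211 and 4 of vessels, blood and microglia 17.7% ± 2.05. The 4 genes of pigment epithelium averaged 30.1% ± 2.57 there. The 7 genes of lens and cornea averaged 68.5% ± 1.57 in left and 70.1% ± 1.18 in right retinas. The level of the rod list was therefore no check of the label retina. The list mean was 10.1%, 11.8% and 10.7% in the left retinas from spaceflight and 17.62%, 11.27% and 14.01% in M31, M32 and M39 from ground control, against 9.34% to 11.2% in right retinas. M31 and M39 lay above all right retinas by the widest margins, while M22 and M32 lay above them by less than 1 point. Of the 10 genes 8 were higher in left retinas, with a median of 1.12 points against -0.0307 points over all promoters, and 1 passed an unadjusted p of 0.05, where 5.93% of all promoters did. The median ran from 0.734 points without M29 to 1.93 points without M32, and it was 1.06 points without M39. Without M31 the median was 1.13 points and the list mean of the left retinas was 11.6% ± 1.52 (SD, n = 5). The left minus right difference of the list mean in spaceflight minus that in ground control was -4.36 points, with an exact permutation p of 0.0150 that adjusted to 0.405 over 27 such tests.

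Prph2, a protein of the disc rim, measured 35.5% in M31 and 19.9% in M39, against 9.39% to 14.9% in right retinas and 11.03% to 17.1% in the other left retinas. Its difference of 5.88 points was 2.74 points without M31. Nr2e3, a transcription factor of rods, measured 39.4% in M31 and 11.05% to 24.1% in the other left retinas, against 12.3% to 23.9% in right retinas. Guca1b, a guanylate cyclase activator, measured 11.4% in M31 and 10.8% in M39, against 1.97% to 7.53% in right retinas. M31 was the highest of all 16 libraries for 4 of the 10 genes and M39 was above every right retina for 6 of the 10. The same counts were not made over all promoters, so they do not set the rod genes apart from others. For Nr2e3 and Reep6 the margin of M39 was small, at 24.1% and 0.701% against highest right values of 23.9% and 0.612%. Grk1 differed by 1.39 points with M31, at 28.9%, and by -0.256 points without it. Slc24a1 differed by 0.616 points with M31 and by 1.28 points without it, and the values of both genes overlapped between the eyes. Abca4, a transporter of retinal, differed by 0.840 points, and Gnb1, Rom1 and Reep6 were below 1.1% in every library.

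**Figure D5:**
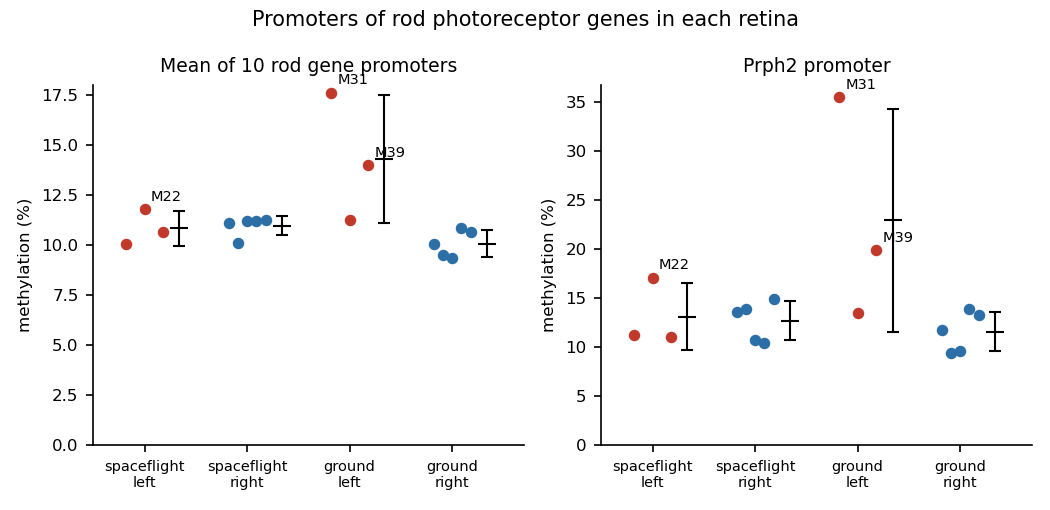
Promoter methylation (%) of each retina for the mean of 10 rod genes and for Prph2; each point is 1 retina (left red, right blue), and the black mark and bar are the mean and SD of a group. M31 lies highest and M39 second in both panels.

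In M31 the promoter farthest above the other libraries, among 16170 with at least 5 CpGs, was again that of Prph2, at 35.5% against 9.39% to 19.9%. Of the promoters of M31 that were 10 points or more from the others, 41 were higher and 158 lower. In M23 67 were higher and 129 lower. Markers of other cell types moved with this as follows. The list means of M31 lay within or near the right range for cones (18.3%, against 17.5% to 19.4%), bipolar cells (8.18%, against 7.86% to 9.02%) and retinal ganglion cells (4.95%, against 4.55% to 5.63%). They lay below it for pigment epithelium (26.03%, against 29.1% to 32.1%) and lens and cornea (67.1%, against 67.9% to 72.0%). For amacrine and horizontal cells they also lay below it (1.18%, against 1.35% to 1.64%). They lay above it for the promoters of imprinted genes (41.7%, against 36.5% to 40.9%). Fewer rods in the sample and more methylation per rod cannot be told apart in bulk tissue, and the part of cell mixture in the eye differences was not tested.

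The other lists are given next, and with a library left out the median of 8 of the 14 lists changed sign. For 16 genes of amacrine and horizontal cells, 13 of retinal ganglion cells, 10 of bipolar cells and 6 of cones, no promoter passed an unadjusted p of 0.05, and the medians ran from -0.0727 to 0.0404 points. Of 13 Müller glia genes 1 passed, Dkk3, which encodes a secreted protein of the Dickkopf family. It measured 5.37%, 5.59% and 5.81% in the left retinas from spaceflight and 3.32%, 5.35% and 7.15% in those from ground control, against 5.71% to 9.38% in right retinas. The difference of -2.22 points (unadjusted p = 0.00313, adjusted p = 0.820) was -1.73 without M31, the lowest value, and it was alike in spaceflight (-2.41) and ground control (-2.03). The 7 genes of lens and cornea had a median of -1.28 points, which ran from -1.92 to -0.730 points with a library left out (M29 and M36), with Cryab, a small heat shock protein of the lens, at 57.4% ± 5.94 in left and 62.0% ± 2.51 in right retinas. Cryab was lowest in M31, and its difference of -4.58 points was -2.32 points without M31. The 4 genes of vessels, blood and microglia, the 3 of fibroblasts and sclera and the 4 of pigment epithelium had medians of 0.344, 0.147 and 0.0816 points. With a library left out the median of vessels, blood and microglia ran from -0.0523 points without M31 to 0.904 points without M39, and that of pigment epithelium from -1.04 points without M39 to 0.266 points without M33. Imprinted genes were read at their promoters, which need not hold the control regions at which 1 parental copy is methylated. This list was measured for 18 of 19 genes. It had a list mean of 39.5% ± 1.38 (SD, n = 6) in left and 38.9% ± 1.48 (SD, n = 10) in right retinas. The difference of this mean was 0.666 points with M31 and 0.316 points without it. Nnat, an imprinted gene of neurons, had the largest difference there, 4.85 points, with an unadjusted p of 0.0622.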

How the data were processed

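RRBS libraries were made from genomic DNA with the NuGEN Ovation RRBS Methyl-Seq system. Per the labels and the paper's methods, the authors used Trim Galore 0.4.5 for trimming, the kit's N6 tags to drop PCR duplicates, and Bismark to align to GRCm38. The deposited tables hold, for each CpG cytosine and strand, a read count and the percent of reads with C or T, as the authors wrote them for methylKit. All cytosines used matched CpGs of GRCm38. The deposited FPKM table of the RNA libraries was not used.

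Both strands were added, and a minimum of 10 reads in every library was set for autosomal CpGs. Means were compared by exact permutation of eye labels within habitat (3136 divisions, smallest p 0.000319, two-sided). CpGs, promoters (1000 bp to either side of a start), islands (at least 200 bp, 50% GC, observed to expected ratio 0.6), which like promoters held at least 3 CpGs, and MspI fragments of 40 to 220 bp with at least 20 calls were tested by logistic regression on eye and habitat, with an overdispersion factor not below 1, an F-test and Benjamini-Hochberg adjustment over all features. Calls needed 10 points, or 5 for promoters and islands. limma 3.58.1 (R 4.3.3) was an alternative. The scripts ran in Python 3.11.15 with NumPy 2.4.6 and SciPy 1.17.1 and were tested on simulated data. Intervals cover the spread between retinas, and reads of a CpG are not independent cells.

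The named CpGs and regions were the 10 CpGs, 6 promoters, 6 islands, 6 fragments with the smallest p among those of the same sign in both habitats and past the minimum difference, the 6 runs with the most CpGs, and, from each list, the 3 members with the smallest p and fixed members such as Nodal and Vax2. Some members are not reported here. The members and lists were chosen with earlier results of these data known. The promoters farthest from the other libraries in M31 and the remaining rod genes were named after their values were seen.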

Additional observations from a re-analysis of the deposited data

Results flagged for a closer look

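Among 158 groups of 6 left or 10 right retinas checked for 1 value far from the others of its eye, 14 (8.86%) had one by Dixon's test at the 95% level, where chance flags about 1 in 20. For left retinas, M31 had a spread over binomial sampling of 3.399 (others 1.47 to 1.92) and 35.5% at the Prph2 promoter (others 11.03% to 19.9%). M21 had 63.8% at the island near Rassf3 (others 45.3% to 51.3%) and a mean of 21.7% over genes of vessels, blood and microglia (others 16.2% to 17.6%). M32 had a mean of 0.438% over genes of fibroblasts and sclera (others 0.813% to 1.03%).

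For right retinas, M23 stood apart in coverage and level: 1117141 CpGs with 10 reads (others 1354875 to 1456335), an island share of 57.5% among those (others 52.7% to 54.1%) and a mean of 36.5% over its own CpGs (others 39.4% to 40.5%). It also had 62.02% over exons (others 62.3% to 62.6%), 5.06% over Müller glia genes (others 7.50% to 8.87%) and 54.4% at the Chp2 promoter (others 38.5% to 46.7%). M37 had 28.9% at the island near Gm51674 (others 13.7% to 20.8%) and 6.83% over dorsoventral genes (others 6.08% to 6.33%). M34 had 1.04% at the Gnb1 promoter (others 0.445% to 0.667%). None of 27 means and list means differed in its eye effect between spaceflight and ground control at an adjusted p of 0.05 (exact permutation within habitat, lowest adjusted p 0.405).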

How the results depend on the processing

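The comparison rests on 6 left against 10 right retinas from different mice. The CpG on chromosome 3 with the widest gap of the 10 named, -23.1 points, had a Benjamini-Hochberg adjusted p of 0.863 by logistic regression. No result here gives the size of difference that would have been called. The zero counts of called CpGs, promoters, islands and fragments stayed 0 at 5 and 20 reads, with chromosome X, without the covariate, with limma, with no minimum difference for CpGs, with promoters of 200 bp, with stricter islands and without each library. Without the overdispersion term, which treats reads as independent, they were 383 CpGs, 105 promoters, 114 islands and 180 fragments, and at an unadjusted p of 0.05 4858 CpGs (with 10 points), 3801 promoters, 3829 islands and 27345 fragments. The count of CpGs at the unadjusted limits was 4947 at 5 reads and 1388 at 20 reads, where other numbers of CpGs were tested, and 2758 to 5229 without each library. Promoters of 200 bp gave 635 at an unadjusted p of 0.05, of which 347 were lower, and a median of 1.24 points for cones. The stricter islands gave 566.

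The mean difference ran from -0.243 to -0.0928 points without each library (within ground control -0.345 to -0.0440, within spaceflight -0.231 to 0.0294, the last without M22). It was -1.61 points over pooled reads, -0.842 over each library's own CpGs, -0.0994 with 10 reads on each strand and -0.193 with no stratum, with exact permutation p of 0.111, 0.149, 0.102 and 0.0902. Promoters at an unadjusted p of 0.05 numbered 806 to 1573, islands 984 to 1366 and fragments 8766 to 11220 without each library. The share of CpGs with the same sign in the other habitat ran from 47.9% to 58.8% for those chosen in spaceflight and from 48.2% to 57.9% for those chosen in ground control. The mean score of the third principal component differed between the eyes (1 of 5 components, adjusted exact permutation p = 0.0335) with overlapping scores and M21 alone at 0.915, and without M21 no component passed (lowest adjusted p = 0.242). The number was 0 at 5 reads, 0 to 1 without each library and 0 without M31, M23 and M21 together, a setting chosen after seeing the data.

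Most named items were chosen for a small p, and many also for a minimum difference and 1 sign in both habitats. Their signs could therefore hardly change, and the count of kept signs is no test of them. Of the named items, 1286 of 1296 values without 1 library kept their sign, and 581 of 589 under other settings. The exceptions were Nodal (-0.315 to 0.288 points over all libraries left out, 0.0217 to 0.288 points without M21, M24, M25, M36, M37 or M39, and 0.229 without M31, M23 and M21), Pdgfrb (-0.378 to 1.62 points, of which -0.378 and -0.285 without M31 or M21, -0.248 without all 3), Mitf (-0.347 to 0.0681 points, of which 0.0322 and 0.0681 without M27 or M33, 0.0863 at 20 reads) and, with promoters of 200 bp, Ccdc40 (0.0427), Nr2f1 (-0.238), Vsx1 (-0.286), Krt12 (0.163) and Pdgfra (-0.134). The mean difference passed an exact permutation p of 0.05 without M23 (-0.230 points), as did that within ground control without M37 (-0.275 points). No paired analysis was possible because left and right retinas came from different mice and their replicate numbers were given in accession order.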
